A study of Mus musculus with 4 samples.

Results

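The genes described here are 35 genes of amino acid supply to translation: 20 cytosolic aminoacyl-tRNA synthetases and 15 genes of the Atf4 pathway. The list was drawn up because Iars, the isoleucyl-tRNA synthetase, was higher after Atad2 knockdown, so the knockdown values of its members are a description and carry no test. Of the 35 genes, 34 could be matched to transcripts of the expression tables and 33 reached a mean of 1 FPKM (fragments per kilobase, normalised to the size of the library), of 11041 genes that did so among 21906 named genes. Aars could not be told apart from Exosc6, which lies in the same locus, and Slc7a11 stayed below the minimum.

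Mouse 46C embryonic stem (ES) cells carrying a TAP tag knocked into Atad2, a chromatin-bound AAA ATPase with a bromodomain, were grown in LIF and 15% serum. They were transfected with an inactive, scrambled siRNA (si-ctrl, 2 libraries) or with siRNA against Atad2 (si-Atad2, 2 libraries). All 4 libraries thus come from tagged cells, and the study picked 1 tagged clone for its work. The labels number the libraries of a condition as replicates, while the study describes more than one active siRNA and repeat sequencing of every RNA. Libraries 1 and 2 of a condition may therefore be repeat runs of the same RNA, or, in si-Atad2, different siRNAs, and no source used here says which. The SD, n and p-values below thus measure only the spread between these libraries, which may be technical, and not that between cultures.

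Synthetases join each amino acid to its tRNA. A group of them, among them the isoleucyl enzyme, sits in a multisynthetase complex held together by the scaffold proteins Aimp1, Aimp2 and Eef1e1, while the others act outside it. When amino acids run short, uncharged tRNA activates the kinase Gcn2 (Eif2ak4), which phosphorylates eIF2 and slows translation while raising that of Atf4 mRNA. Atf4 protein then switches on genes for amino acid synthesis and uptake, many synthetases among them, through sites in which a C/EBP-like and an ATF-like element are joined.

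Atad2 itself was 34.1 FPKM in si-ctrl 1, 36.0 in si-ctrl 2, 10.1 in si-Atad2 1 and 13.0 in si-Atad2 2. The knockdown left 29.6% of the control level in pair 1 and 36.2% in pair 2, where a pair is the si-Atad2 and the si-ctrl library of the same number. Of 8 ES cell markers, the 7 with a value ranged from 68.6 FPKM (Klf4) to 985 FPKM (Dppa5a) in si-ctrl, with Pou5f1 at 807, 739, 778 and 701 FPKM in si-ctrl 1, si-Atad2 1, si-ctrl 2 and si-Atad2 2. Among the fibroblast markers Thy1 was highest, with a si-ctrl mean of 6.46 FPKM, followed by Pdgfrb, and Lum was listed at 0; among the markers of differentiated cells Fgf5 led with 2.26 FPKM, before Eomes. All 7 ES cell markers were lower in both pairs, or 5 of them after rescaling to TPM (the same total in every library), none past the test; of all 11041 genes 3761 were lower in both pairs, or 2594 after rescaling. The summed level of the ES cell markers was 2834 to 2859 FPKM in si-ctrl and 2566 to 2626 FPKM in si-Atad2. The part of this shift in the values below was not tested. In bulk RNA, fewer cells of a type and less RNA per cell cannot be told apart.

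The promoters of several members hold the core of the C/EBP-ATF element, which is why a few of them are shown first. Promoter sequences from RefSeq (GRCm38.p6) covered 250 bases before to 50 bases after the first transcribed base, which is position 1; 27 of the 35 members had an entry. The letters TGATGNAA, searched on both strands, occurred in 9 of these 27 members and in 3.97% of all 32851 promoters of the same length. Counted as single promoters, as all promoters are, 9 of 29 member promoters held them. Part of the list was drawn up as genes of the Atf4 pathway, so these shares carry no test. The 9 members were Iars, Aars, Gars, Tars and Yars among 13 synthetases with an entry, and Asns, Chac1, Trib3 and Slc7a11 among 14 Atf4 pathway genes. The shorter letters TGATG, which lie inside the longer motif, occurred in 14 members (14 of 29 member promoters) and in 39.3% of all promoters. The windows below run 5′ to 3′ on the strand of the gene, with the motif in capitals, which reads TTGCATCA or TTTCATCA where it lies on the opposite strand.
Iars, chr13:49682115-49682159, plus strand: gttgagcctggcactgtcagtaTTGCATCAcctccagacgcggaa
Gars, chr6:55037949-55038000, plus strand: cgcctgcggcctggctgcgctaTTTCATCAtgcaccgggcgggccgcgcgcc
Tars, chr15:11399644-11399695, minus strand: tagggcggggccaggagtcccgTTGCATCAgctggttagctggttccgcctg
Yars, chr4:129189884-129189932, plus strand: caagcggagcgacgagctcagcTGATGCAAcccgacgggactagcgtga
Asns, chr6:7693203-7693254, minus strand: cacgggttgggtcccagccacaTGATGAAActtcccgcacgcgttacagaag
Chac1, chr2:119351027-119351078, plus strand: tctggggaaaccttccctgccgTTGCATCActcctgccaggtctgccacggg
Slc7a11, chr3:50443650-50443701, minus strand: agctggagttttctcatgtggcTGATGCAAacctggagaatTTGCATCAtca

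The motif of Iars lay at positions 8 to 15, just inside the transcribed part, and that of Yars at positions 4 to 11. In Gars, Tars and Asns it lay between 30 and 8 bases before the start, and in Chac1 193 bases before it. Slc7a11 held it once on each strand. These letters are a description of the sequence and do not show that a factor binds there. The 7 tested members with the motif had median log2 ratios of 0.05 in pair 1 and -0.07 in pair 2, or 0.04 and -0.08 for the 6 without Iars, against -0.08 and -0.10 for the 18 tested members whose promoters lack it. Among those with the motif, Gars had -0.06 and -0.10 and Asns 0.02 and -0.09.

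In si-ctrl cells the synthetases were abundant and lay within a narrow range. FPKM is a level per length, so genes can be ranked: the mean of both si-ctrl libraries ran from 39.5 FPKM for Iars to 171 FPKM for Kars, the lysyl enzyme, with a median of 75.6 FPKM over 19 synthetases. Iars was the lowest synthetase in both si-ctrl libraries, and the next above it was Wars, the tryptophanyl enzyme, at 46.5 and 45.9 FPKM. The Atf4 pathway genes spread far wider, from 0.954 FPKM for Slc7a11 to 170 FPKM for Psat1, with a median of 31.9 FPKM. Ordered by level, 12 of the 33 neighbouring pairs of members had si-ctrl values that overlapped, such as Kars and Psat1, or Rars (111 and 115 FPKM) and Nars (112 and 114 FPKM); Wars and Iars did not overlap. In this order Iars stood at place 26 of 34, and at place 18 in the si-Atad2 libraries.

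**Figure D1:**
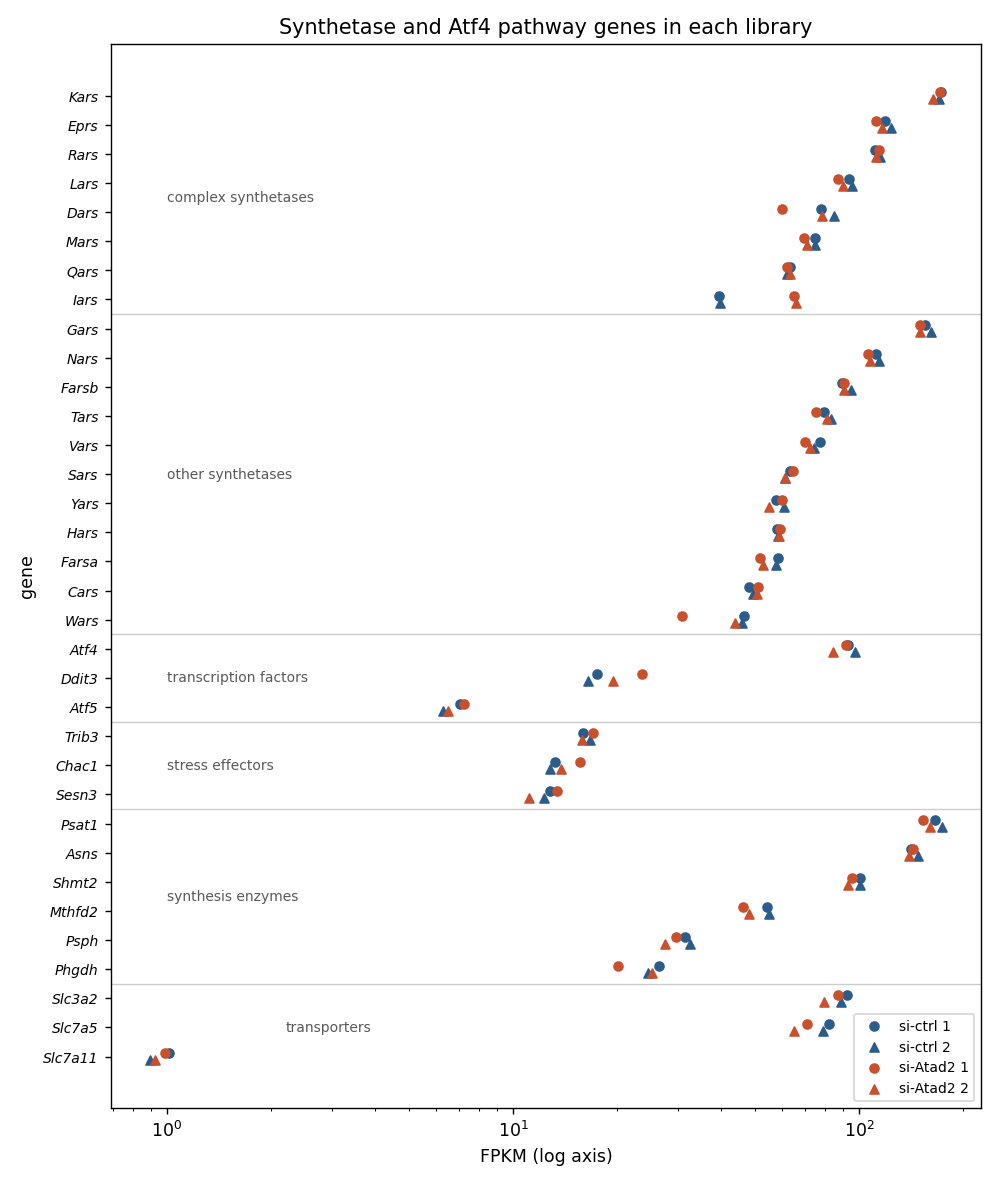
Level of 34 genes in each library, in FPKM on a log axis, grouped by role; blue marks are si-ctrl, red marks si-Atad2, circles library 1 and triangles library 2. For Iars the si-ctrl marks sit together near 39.5 FPKM and the si-Atad2 marks at 64.7 and 65.6 FPKM, while for most other genes the 4 marks lie close together.

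Iars (chr13:49682100-49734267, GRCm38, plus strand) was 39.4 FPKM in si-ctrl 1 and 39.6 in si-ctrl 2, against 64.7 in si-Atad2 1 and 65.6 in si-Atad2 2. The si-Atad2 libraries were both above the si-ctrl libraries, and libraries of the same condition were nearly equal. The means were 39.5 ± 0.102 FPKM and 65.2 ± 0.644 FPKM (SD, n = 2 libraries each), and the ratios were 1.64-fold in pair 1 and 1.66-fold in pair 2, or 0.70 and 0.72 as log2 ratios of FPKM + 1. The intervals that the authors' program gave for each library, 38.6 to 40.3 and 38.7 to 40.5 FPKM in si-ctrl and 63.6 to 65.8 and 64.5 to 66.7 FPKM in si-Atad2, did not overlap between conditions. The value rests on 1 transcript of 4396 bases that is alone in its locus. Only 9 of the 11041 genes tested had a higher mean ratio. This rank is a description, since Iars is the gene whose rise chose the list.

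The gene next to Iars, Nol8, ends 3084 bases before it and was 29.1, 29.7, 30.7 and 28.0 FPKM in si-ctrl 1, si-Atad2 1, si-ctrl 2 and si-Atad2 2, with ratios of 0.03 and -0.13 that differ in sign. No other coding gene within 50 kb of Iars had a value. The GC content of Iars transcripts, 48.3%, is close to the median of the genes tested, 49.9%. Ratios followed GC content across genes in pair 1 (Spearman rho -0.28) and less so in pair 2 (rho 0.08), and the si-ctrl libraries differed from each other along it (rho -0.53); these values are across genes, which are not independent. With the GC trend taken out, the mean log2 ratio of Iars was 0.70. A gene this close to the median GC content is moved little by that step, so the value is no check on a GC effect.

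No other member came near this ratio, but the list was chosen on the rise of Iars, so its distance from the others is a description. Over all genes, 1.02% were called higher and 0.281% lower in si-Atad2 (limma, Benjamini-Hochberg adjusted p under 0.05); among the 33 tested members Iars was the 1 called higher and 0 were called lower, a count of limma calls that the choice of the list fixes in part. The mean log2 ratios of the other 32 ranged from -0.32 (Wars) to 0.32 (Ddit3), and 29 of them lay within the range that held the central 95% of all genes tested, -0.24 to 0.30. The si-Atad2 values of both libraries lay above both si-ctrl values for 5 of 33 members, with 22.3% of all genes in that position, and below both for 15 of 33, with 26.8% of all genes. Nothing is read from these counts, since the list was chosen on this comparison.

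**Figure D2:**
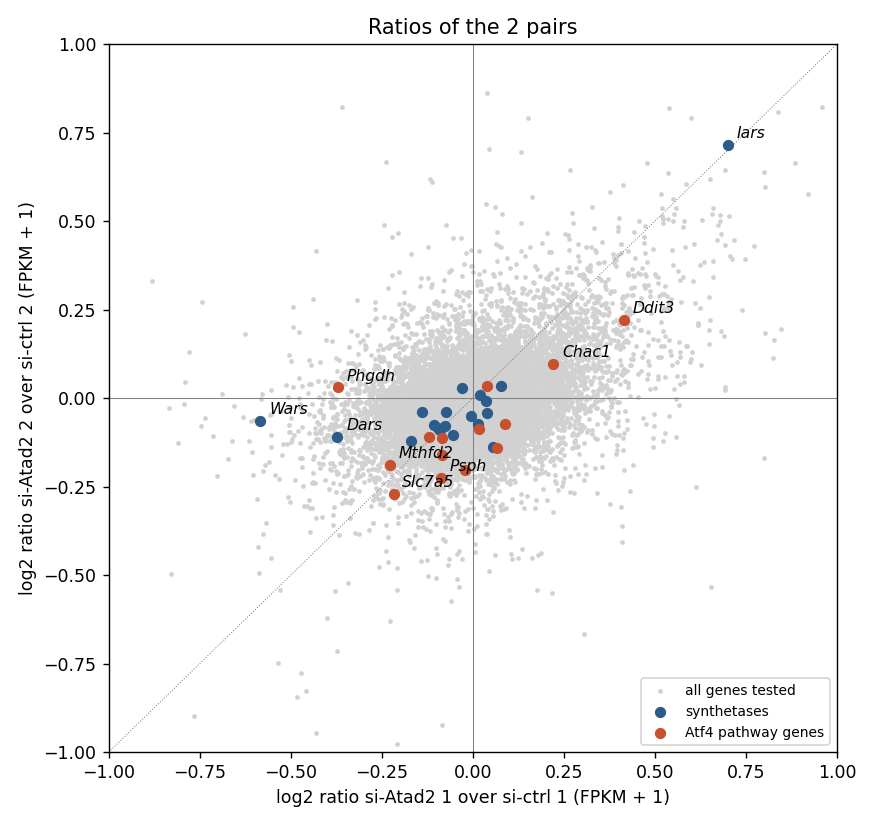
Log2 ratio of si-Atad2 over si-ctrl (FPKM + 1) in pair 1 against pair 2 for all genes tested (grey), synthetases (blue) and Atf4 pathway genes (red); 13 genes with a ratio beyond 1 in either direction are outside the axes. Iars lies at 0.70 and 0.72, and the other members lie closer to the origin, among them Wars at -0.58 and -0.06 and Ddit3 at 0.41 and 0.22. Wars, Dars and Phgdh are lower in pair 1 than in pair 2.

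The other members of the multisynthetase complex did not share the ratio of Iars. The 7 synthetases that sit with it (Eprs, Lars, Mars, Qars, Rars, Kars and Dars) had median log2 ratios of -0.09 in pair 1 and -0.08 in pair 2, with 0 of 7 higher in both pairs and 5 lower in both, or 1 higher and 4 lower after rescaling to TPM. Of all 11041 genes, 3160 were higher and 3761 lower in both pairs, or 4274 and 2594 after rescaling. Eprs, the double enzyme for glutamate and proline, went from 119 to 112 FPKM in pair 1 and from 124 to 117 FPKM in pair 2. Lars, the leucyl enzyme, which handles a closely related amino acid, went from 93.3 to 87.2 FPKM and from 95.2 to 89.8 FPKM. Both genes had si-Atad2 values below both si-ctrl values, by about as much in each pair. Qars and Rars, for glutamine and arginine, differed in sign between pairs, at -0.03 and 0.03 and at 0.04 and -0.04. Kars was 172 and 170 FPKM in si-ctrl against 172 and 164 FPKM in si-Atad2, with overlap. Dars, the aspartyl enzyme, was 77.7, 59.8, 84.6 and 78.3 FPKM in si-ctrl 1, si-Atad2 1, si-ctrl 2 and si-Atad2 2, so its low value was in si-Atad2 1 and the conditions overlapped.

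Outside the complex, 11 synthetases had median log2 ratios of -0.06 and -0.06, from -0.32 (Wars) to 0.06 (Cars, the cysteinyl enzyme). Wars was 46.5 and 45.9 FPKM in si-ctrl, 30.7 in si-Atad2 1 and 43.9 in si-Atad2 2, so its log2 ratios of -0.58 and -0.06 rest on 1 library. Its main transcript, of 2831 bases, was 40.0, 25.7, 39.8 and 38.9 FPKM in si-ctrl 1, si-Atad2 1, si-ctrl 2 and si-Atad2 2. Farsa, a subunit of the phenylalanyl enzyme, was 58.5 and 57.6 FPKM in si-ctrl against 51.9 and 52.8 FPKM in si-Atad2, while its partner subunit Farsb was 89.4 and 95.1 against 90.3 and 90.4 FPKM. Hars, the histidyl enzyme, stayed between 58.1 and 59.0 FPKM in all 4 libraries. Gars, Nars and Vars were below both si-ctrl values in both si-Atad2 libraries, with mean ratios of -0.08 to -0.09, and Sars, Tars and Yars overlapped between conditions. Cars was measured by 2 transcripts that went opposite ways: the one of 2973 bases was 30.5, 34.3, 32.0 and 34.5 FPKM, and the one of 3222 bases 17.7, 16.7, 17.4 and 16.2 FPKM, in si-ctrl 1, si-Atad2 1, si-ctrl 2 and si-Atad2 2. For Aars the locus it shares with Exosc6 was 99.6, 99.1, 99.1 and 101 FPKM for its longest transcript, in the same order.

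The transcription factors of the pathway had ratios of either sign. Atf4, the central activator, which is controlled mostly through its translation, was 93.1 and 97.1 FPKM in si-ctrl and 91.8 and 84.2 FPKM in si-Atad2, with log2 ratios of -0.02 and -0.20. Ddit3, which encodes the stress factor Chop, was 17.5 and 16.5 FPKM in si-ctrl and 23.6 and 19.4 FPKM in si-Atad2. Both si-Atad2 libraries were above both si-ctrl libraries, with log2 ratios of 0.41 and 0.22, and 120 of the 11041 genes were above Ddit3 in both pairs. Ddit3 shares its locus with Mars, the methionyl synthetase on the other strand, and the transcripts were told apart by length. Ddit3 was named only by the step for shared loci (length within 5%), chosen after seeing which members lacked a name. Mars was 74.6 and 74.5 FPKM in si-ctrl and 69.2 and 70.6 FPKM in si-Atad2. Atf5, a relative of Atf4, was low at 6.29 to 7.23 FPKM, with ratios of 0.04 in each pair.

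The stress effectors were low beside the other members, with si-ctrl means of 12.6 to 16.3 FPKM, but above the median of all genes tested, 9.68 FPKM. Chac1, which degrades glutathione, was 13.3 and 12.8 FPKM in si-ctrl against 15.6 and 13.8 FPKM in si-Atad2, higher in both pairs at 0.22 and 0.10. Trib3, a pseudokinase that restrains Atf4 output, had ratios of 0.09 and -0.07, and Sesn3, an inhibitor of mTORC1 signalling, 0.07 and -0.14. These last genes differed in sign between the pairs.

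The 6 enzymes of amino acid synthesis had median log2 ratios of -0.10 and -0.11, and none was called. Of these, 4 were lower in both pairs, as were 3761 of all 11041 genes, and the other 2, Asns and Phgdh, differed in sign between pairs. Asns, the asparagine synthetase and a standard marker of Atf4 activity, was 141 and 148 FPKM in si-ctrl and 143 and 140 FPKM in si-Atad2, and the conditions overlapped. In the serine pathway, Phgdh, its first enzyme, was 26.4 and 24.6 FPKM in si-ctrl, 20.2 in si-Atad2 1 and 25.2 in si-Atad2 2. The later enzymes Psat1 and Psph had ratios of -0.12 and -0.11 and of -0.09 and -0.23. Mthfd2, a mitochondrial one-carbon enzyme, went from 54.4 to 46.3 FPKM and from 54.9 to 48.0 FPKM, and Shmt2, which feeds it, from 101 to 95.3 FPKM and from 101 to 93.1 FPKM. For Psat1, Psph, Mthfd2 and Shmt2 both si-Atad2 values were below both si-ctrl values.

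Of the transporters, Slc7a5, the large neutral amino acid carrier that brings in isoleucine and leucine, was 82.2 and 78.7 FPKM in si-ctrl and 70.5 and 65.1 FPKM in si-Atad2. Both si-Atad2 libraries were below both si-ctrl libraries, at log2 ratios of -0.22 and -0.27, the lowest mean of the Atf4 pathway genes. Its partner chain Slc3a2 was 92.1 and 88.6 FPKM against 86.8 and 79.2 FPKM. Slc3a2 too was measured by transcripts that differed: one of 2572 bases was 80.9, 72.7, 79.2 and 69.1 FPKM and one of 2813 bases 11.1, 13.2, 9.47 and 10.1 FPKM in si-ctrl 1, si-Atad2 1, si-ctrl 2 and si-Atad2 2. Slc7a11, the cystine carrier, was 0.99 and 0.93 FPKM in si-Atad2 and 1.01 and 0.90 in si-ctrl.

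The synthetases and the Atf4 pathway genes were then set side by side, with no test of their difference. The 18 synthetases other than Iars had medians of -0.07 in each pair, and the 14 tested Atf4 pathway genes -0.05 and -0.11. Over all genes the medians were 0.001 and -0.02. After rescaling to TPM, the medians of the mean ratio were -0.032, -0.070 and 0.025 in the same order. The median of all 19 synthetases minus that of the Atf4 pathway genes was -0.003 in pair 1 and 0.05 in pair 2, so its sign turned between pairs. Both ratios were within 0.1 of 0 for 11 of 19 synthetases and for 3 of 14 Atf4 pathway genes, against 3625 of the 11041 genes. The median absolute value of the mean log2 ratio was 0.078 for synthetases and 0.118 for Atf4 pathway genes, against 0.075 over all genes. Between the si-Atad2 libraries the Atf4 pathway genes differed by a median of 0.119 (log2) and the synthetases by 0.029, against 0.082 over all genes. Between the si-ctrl libraries these medians were 0.060 and 0.034, against 0.059. The Atf4 pathway genes also had the lower median si-ctrl level, 31.9 against 75.6 FPKM. Libraries 1 and 2 were scaled in separate runs, and the si-ctrl libraries differed along GC content (Spearman rho -0.53 across genes). The parts of level, run scaling and GC content in these medians and spreads were not tested.

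The wider machinery held 76 tested genes in 6 lists, of which limma called 1 higher and 1 lower, beside 1.02% and 0.281% of all genes. The called genes were Mat2b, which rose, and Eef1e1, which fell. The lists were chosen with earlier results of these data known, so these calls and their p-values are a description and not an independent test. Mat2b, the regulatory subunit of the enzyme that makes S-adenosylmethionine, was 43.7 and 45.1 FPKM in si-ctrl and 69.1 and 69.8 FPKM in si-Atad2 (log2 ratio 0.63 ± 0.06, SE, limma adjusted p = 0.0025, and 0.00024 to 0.41 over the other settings, 1 of 12 of which lost the call). Its pair ratios of 0.65 and 0.62 were close to those of Iars. The catalytic gene Mat2a, named after its values were seen, was 101, 105, 105 and 115 FPKM in si-ctrl 1, si-Atad2 1, si-ctrl 2 and si-Atad2 2 and was not called. Eef1e1, a scaffold of the multisynthetase complex, was 91.6 and 95.8 FPKM in si-ctrl and 72.6 and 78.3 FPKM in si-Atad2 (log2 ratio -0.31 ± 0.06, SE, limma adjusted p = 0.040). With the pairs taken apart (no replicate block) the limma adjusted p of Eef1e1 was 0.051, and 6 of 11 other settings lost its call, with adjusted p from 0.023 to 0.48 over all of them.

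The other lists held no call. Of 16 mitochondrial synthetases, 3 were higher and 7 lower in both pairs (6 and 4 after rescaling to TPM) and none was called; Lars2, the most abundant, was 93.5, 68.1, 105 and 98.2 FPKM in si-ctrl 1, si-Atad2 1, si-ctrl 2 and si-Atad2 2, low in si-Atad2 1 as were Wars and Dars, and Tars2 had ratios of -0.06 and -0.03. Of 12 eIF2 kinase and eIF2 genes none was called, with Eif2b5 at 0.05 and 0.08 and Eif2s1, the phosphorylated subunit and lowest of the list, at -0.16 and -0.15. Named after their values were seen, Eif2ak4 (Gcn2) had -0.06 and 0.003, and the kinase Eif2ak2, the highest of the list, had 0.35 and 0.08. Of 21 further Atf4 and Ddit3 targets, 8 were higher and 9 lower in both pairs (9 and 8 after rescaling to TPM). Of all 11041 genes, 3160 were higher and 3761 lower in both pairs, or 4274 and 2594 after rescaling. The median ratios of these targets were -0.006 and -0.01. The most abundant of them, Eif4ebp1 and Ddit4, had 0.05 and 0.17, and 0.08 and 0.14. Chosen after their values were seen, Cebpg was highest at 0.38 and 0.27, followed by Sesn2 at 0.30 and 0.28, and Gpt2 was lowest at -0.47 and -0.25; none of them passed the test. Of 11 further amino acid transporters none was called, with Slc7a3, an arginine carrier, at -0.20 and -0.09 and Slc7a7 at 0.08 and -0.11; the lowest, Slc7a1, also named after its values were seen, was at -0.24 and -0.43.

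**Figure D3:**
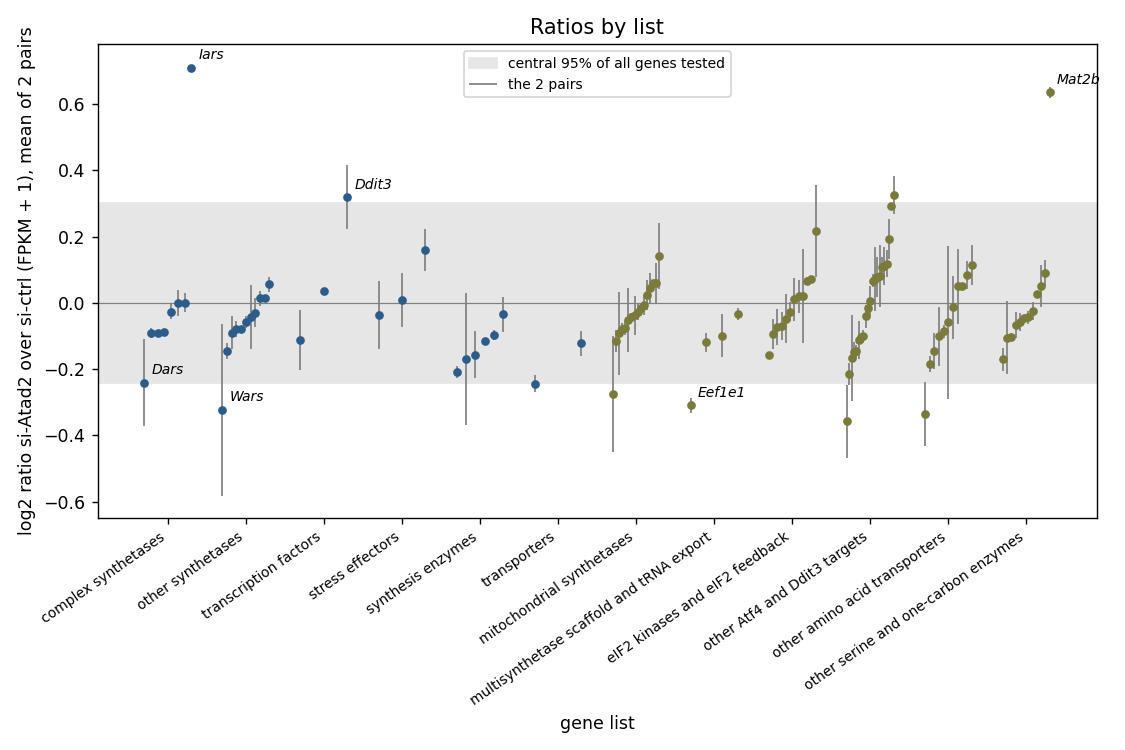
Mean log2 ratio of si-Atad2 over si-ctrl (FPKM + 1) for each tested gene by list, members in blue and the wider lists in olive; grey lines join the ratios of both pairs and the shaded band spans the central 95% of all genes tested, -0.24 to 0.30. Iars and Mat2b stand at 0.71 and 0.63, and Wars has the longest line among the members.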

How the data were processed

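Total RNA (500 ng per library) was sequenced with TruSeq libraries and paired ends of 50 cycles, 4 libraries in 1 lane. The authors ran TopHat and Cuffdiff (the submitters' processing notes; versions are not given in the sources used here) once per replicate number and deposited FPKM values with 95% intervals, scaled within each run. Transcript lengths, another kind of value, were taken from the authors' deposited transcript table. The tables hold no counts, so depth per library is unknown and intervals are the program's own. The authors' test columns (fold changes and p-values) were not used. The notes name mm9, but the loci carry GRCm38 positions.

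Of 59120 transcripts, 11768 stayed unnamed and the others were named from GENCODE vM21 by length within 3 bases (14761), by the only coding gene of the locus (27851), or by length within 5% in shared loci (4740). The last step and the rules on locus ends (100 bases) and cover (50%) were chosen after seeing which members lacked a name. Ddit3, Shmt2, Slc7a5 and Yars were named only by that last step, and Farsb reached the minimum level only with it. Without it 28 members were tested. Transcripts under 200 bases were dropped, as were those that the authors' program did not mark OK in all 4 libraries. FPKM of the others were summed per gene. For Dars this left out 1 transcript of 1365 bases. It was 0, 1.65, 0 and 0.52 FPKM in si-ctrl 1, si-Atad2 1, si-ctrl 2 and si-Atad2 2. Log2((si-Atad2 + 1)/(si-ctrl + 1)) was taken within each pair for genes averaging 1 FPKM or more over the libraries, and the 2 ratios were fitted with limma 3.58.1 (R 4.3.3; trend on level, Benjamini-Hochberg over all genes). A fold change with this pseudocount understates that of low genes. The pair is thus a block, since each was scaled in its own run; across genes, the difference between libraries 1 and 2 in si-ctrl and that in si-Atad2 had a Pearson correlation of -0.02. An exact permutation test of 2 libraries against 2 cannot go below p = 0.333 and was not used. On simulated data with 11041 genes, of which a small part was changed, the fit called 99% of changes of 0.5 and 100% of changes of 1 (log2). The simulated noise was normal, with a common spread for genes of similar level, whereas real genes differ in spread. These shares therefore do not tell how many real changes the fit misses, and an uncalled gene is not shown to be unchanged. All members were named, and from each wider list the called genes or, where none was called, the 2 most abundant. Members and lists were chosen with earlier results of these data known.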

Additional observations from a re-analysis of the deposited data

How the results depend on the processing

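Over all genes limma called 144 (113 higher, 31 lower; 1714 at an unadjusted p under 0.05). It called 313 after rescaling to TPM, 81 without the trend, 74 with the GC trend removed, 32 with symbols by length match only, 13 with transcripts of all lengths and 0 without a filter on level (1850 unadjusted). The call of Iars was lost without the filter, where 0 members were called, and TPM gave 2, Ddit3 being added. The wider lists had 2 calls, but 6 under TPM, 5 without the step for shared loci, 0 without the filter, and 1 each under median of ratios, no trend, all lengths, length match only and the GC correction. The log2 ratio of Iars was 0.72 and 0.66 with pseudocounts of 0.1 and 5 FPKM and 0.75 under TPM. The synthetase median of -0.057 became -0.022 under TPM, -0.050 under median of ratios, -0.091 by length match only, -0.066 with the GC trend removed, -0.078 without the step for shared loci and -0.067 without Iars. By length match only, the Atf4 pathway median was 0.037, the synthetase minus Atf4 pathway difference -0.13 and the median si-ctrl level of the members 39.5 FPKM, against 68.6 FPKM otherwise, 262 in TPM and 62.5 FPKM without the step for shared loci; fewer transcripts enter there. Leaving out pair 1 or pair 2 in turn gave ranges of -0.064 to -0.055 (synthetases), -0.11 to -0.052 (Atf4 pathway), -0.0034 to 0.046 (their difference) and -1.66 to -1.40 (Atad2). Atad2, at -1.53, lost its call without the filter (limma adjusted p = 0.41). The promoter motif was in 14 members as TGATG and in 2 as TGATGCAAT. Without the replicate block 143 genes were called, 126 of them shared with the paired fit. Iars kept its call there, and Eef1e1 did not. Since the list was chosen on the rise of Iars, its call under any setting is a description and no support for that rise. The mean ratio of 7 members changed sign under some setting. The causes were not tested. With 2 libraries per condition, unknown depth and separately scaled runs, small ratios of single members cannot be told from the spread between libraries. The steps for shared loci and the medians without Iars were added after seeing the data.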
